A study of Mus musculus with 6 samples.

Results

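The vesicular glutamate transporters are 3 genes, Slc17a7 (VGLUT1), Slc17a6 (VGLUT2) and Slc17a8 (VGLUT3), of the 52390 genes listed for this mouse brain RNA-seq. The genes were chosen by name, as the whole family, with the counts of these libraries in view, so their own differences between groups are given as descriptions without a test. All 3 passed the filter on low counts and are among the 21844 genes tested. RNA was sequenced from 3 control mice and 3 mice that overexpressed AP1AR-DT (AC109347.1), a long noncoding RNA, which are called AP1AR-DT OE here. The study used male mice of the C57BL/6 J background, an inbred laboratory strain, and injected a recombinant adeno-associated virus (AAV) into the medial prefrontal cortex (mPFC) at 8 weeks of age. In the AP1AR-DT OE mice the human synapsin I promoter, a neuronal promoter, drove AP1AR-DT, and the CMV promoter drove EGFP from the same virus. The mice of both groups were wild type, and the control mice received the empty AAV, so both groups had surgery and virus. AP1AR-DT is a human RNA that is not among the mouse genes counted, and its overexpression could not be checked in these counts. The labels give the tissue as brain, whereas the study's text names the mPFC in one place and cortical tissue in another.

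A vesicular glutamate transporter fills synaptic vesicles with glutamate, the main excitatory transmitter of the brain, using the proton gradient that the vacuolar ATPase sets up across the vesicle membrane. A neuron that carries one of them can release glutamate, so these genes mark glutamatergic neurons. VGLUT1 is the main form in neurons of the cerebral cortex and hippocampus, VGLUT2 in neurons of the thalamus, hypothalamus and brainstem, and VGLUT3 occurs in scattered neurons that often release another transmitter as well, such as serotonin, acetylcholine or GABA.

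Slc17a7 (ENSMUSG00000070570) lies on the plus strand of GRCm38 at chr7:45163949-45176142 and has 12 exons in its principal transcript. Slc17a6 (ENSMUSG00000030500) lies on the plus strand of the same chromosome at chr7:51622006-51671119, also with 12 exons. Slc17a8 (ENSMUSG00000019935) lies on the minus strand at chr10:89574020-89621253, again with 12 exons. The coding sequences, of 1680, 1746 and 1803 bases in that order, resemble each other, which bears on whether reads could be counted for the wrong gene. Slc17a6 and Slc17a7 were identical at 72.73% of aligned coding bases, Slc17a6 and Slc17a8 at 71.52%, and Slc17a7 and Slc17a8 at 71.03%. The longest run of identical bases between any pair was 25, against reads of 150 bases. Below are the most alike 150 coding bases, printed 5′ to 3′ on the coding strand from the GENCODE vM21 transcripts on GRCm38, with capitals at the 39 positions that are not identical in all 3 genes. They start at coding position 1203 of Slc17a7, 1227 of Slc17a6 and 1278 of Slc17a8.
Slc17a7: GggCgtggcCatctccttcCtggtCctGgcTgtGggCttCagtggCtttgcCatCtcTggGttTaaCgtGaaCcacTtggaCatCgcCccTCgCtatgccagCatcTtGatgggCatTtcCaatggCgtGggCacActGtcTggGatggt
Slc17a6: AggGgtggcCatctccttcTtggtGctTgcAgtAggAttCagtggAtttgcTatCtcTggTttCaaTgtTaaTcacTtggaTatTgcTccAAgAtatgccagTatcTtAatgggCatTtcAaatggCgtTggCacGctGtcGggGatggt
Slc17a8: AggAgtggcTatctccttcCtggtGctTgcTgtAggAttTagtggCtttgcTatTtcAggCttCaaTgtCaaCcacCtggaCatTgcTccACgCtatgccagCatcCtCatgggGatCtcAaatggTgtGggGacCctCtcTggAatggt
Even in this window differing bases recur every few positions. None of the 100-base stretches of the transporters (5939 of Slc17a7, 5583 of Slc17a6 and 4621 of Slc17a8) occurred in a transcript of another gene. The annotation places the microRNA gene Mir7055 inside Slc17a7, with at most 73 counts in a library, and Gm45072 inside Slc17a6, with 0 counts in every library.

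The libraries held 42061721 to 54668294 counts, and mitochondrial genes took 5.75% to 9.86% of them. Values are normalized read counts (CPM), scaled to a common library total with TMM factors, which compare 1 gene across libraries. Levels of different genes are compared as counts per kilobase of the longest transcript scaled to a common sum (TPM). Control libraries are numbered as the mice, and AP1AR-DT OE libraries are called A, B and C because their columns do not name the mouse. Libraries of the control group stood apart from each other in genes that mark brain regions. Control 3 had 3430 CPM of Ttr, the transthyretin gene of the choroid plexus, against 1.06 to 5.43 CPM in the other 5 libraries. Control 3 also had the most Tcf7l2, a transcription factor gene of the thalamus, at 134 CPM against 9.76 to 11.2 CPM elsewhere. Control 2 had 184 CPM of Avp and 281 CPM of Oxt, the vasopressin and oxytocin genes of the hypothalamus, against at most 15.1 and 18.6 CPM in any other library. Defining markers of cortical excitatory neurons were low or uneven. Neurod6, a transcription factor gene of cortical excitatory neurons, ranged from 0.0756 to 20.8 TPM, lowest in control 2. Ppp1r1b (DARPP-32), a gene of striatal neurons, ranged from 58.2 to 684 TPM. The fitted changes of Slc17a7 and Slc17a6 are given with and without these libraries, and list counts and medians without control 3 where they moved.

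Slc17a7 was the transporter with the widest range. Its counts were 1148, 192 and 11642 in control libraries 1, 2 and 3, and 12231, 24979 and 4578 in AP1AR-DT OE libraries A, B and C. In CPM these were 28.2, 3.86 and 233 in the control group and 231, 463 and 87.2 in the AP1AR-DT OE group. Controls 1 and 2 were below every AP1AR-DT OE library, but control 3 lay above A and C, so the groups overlapped. The highest control library had 60.5 times the lowest, while this ratio was 5.31 within the AP1AR-DT OE group. The mean was 88.4 ± 126 CPM (SD, n = 3) in the control group and 260 ± 190 CPM (SD, n = 3) in the AP1AR-DT OE group. The fitted log2 fold change of AP1AR-DT OE over control was 1.56 with a standard error (SE) of 1.26. Without control 3 it was 4.04 (SE 1.09), without control 2 it was 1.00 (SE 0.98), and without AP1AR-DT OE B it was 0.85 (SE 1.42). With control 1 as the only control it was 3.21. Averaging the logarithms of the libraries with limma-voom, which gives a high library less weight than averaging counts does, gave 2.84 (SE 1.31).

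Slc17a6 had the opposite sign. Its counts were 917, 4024 and 10801 in control libraries 1 to 3, and 896, 805 and 1377 in A, B and C. In CPM these were 22.5, 80.8 and 216 in the control group and 16.9, 14.9 and 26.2 in the AP1AR-DT OE group. The AP1AR-DT OE libraries lay close together, and the control libraries spread from their level upward. Control 1 was below AP1AR-DT OE C, so the groups overlapped here too. The ratio of highest to lowest was 9.59 within the control group and 1.76 within the AP1AR-DT OE group. The mean was 107 ± 99.4 CPM (SD, n = 3) in the control group and 19.4 ± 6.04 CPM (SD, n = 3) in the AP1AR-DT OE group, with a fitted log2 fold change of -2.46 (SE 0.73). The fold change was -2.62 (SE 0.82) without control 2 and -1.40 (SE 0.51) without control 3. With control 1 as the only control it was -0.22. Controls 2 and 3, left out of that fit, were the libraries highest in Slc17a6, so a smaller difference was set by this choice.

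Slc17a8 was the lowest and most even of the family. Its counts were 241, 220 and 229 in the control libraries and 291, 182 and 276 in A, B and C. In CPM these were 5.92, 4.42 and 4.59 in the control group and 5.49, 3.38 and 5.26 in the AP1AR-DT OE group, where B was the lowest of all and control 1 the highest. The groups overlapped over most of their range. The mean was 4.98 ± 0.826 CPM (SD, n = 3) in the control group and 4.71 ± 1.16 CPM (SD, n = 3) in the AP1AR-DT OE group. The fitted log2 fold change was -0.079 (SE 0.24), smaller than its SE, and its sign was positive without control 1, without AP1AR-DT OE B and after correction for GC content. The groups separated for 0 of the 3 transporters. Over all genes tested they did not overlap for 22.4%, and with 3 genes this count does not set the family apart.

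**Figure D1:**
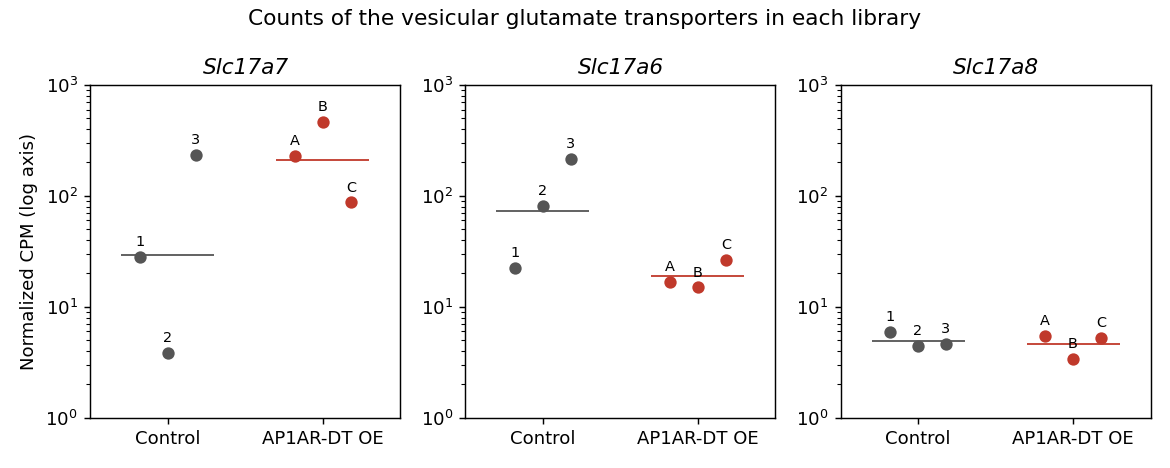
Normalized CPM of each transporter in each library on a log axis, with points for single libraries (controls 1 to 3, AP1AR-DT OE A to C) and lines for the geometric mean of a group. Slc17a7 runs from 3.86 to 463 CPM and Slc17a6 from 14.9 to 216 CPM, while Slc17a8 stays between 3.38 and 5.92 CPM.

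The make-up of the family was compared per length within each library. Slc17a7 reached 16.6, 2.53 and 147 TPM in controls 1 to 3 and 144, 289 and 57.3 TPM in A to C. Slc17a6 reached 9.85, 39.5 and 102 TPM in the controls and 7.86, 6.94 and 12.8 TPM in A to C. Slc17a8 stayed between 1.46 and 2.40 TPM. Slc17a7 was thus the highest of the family in 5 libraries, and Slc17a6 in control 2. Slc17a7 made up 57.5%, 5.75% and 58.7% of the summed TPM of the family in controls 1 to 3. Its share was 93.4%, 97.2% and 79.0% in A to C, above each of the controls. Slc17a6 made up 34.2%, 89.7% and 40.5% in the controls against 5.09%, 2.33% and 17.7% in A to C. Slc17a8 made up between 0.489% and 8.34%, with overlap of the groups.

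**Figure D2:**
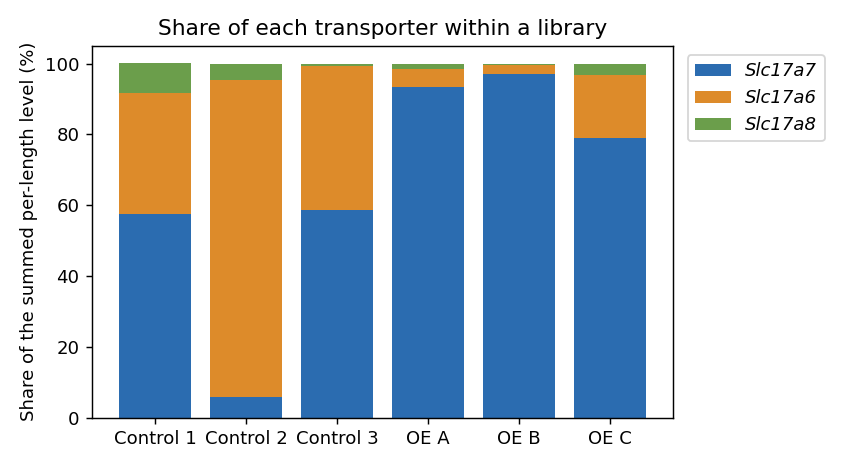
Share of each transporter, in percent of the summed TPM of the family, in each of the 3 control and 3 AP1AR-DT OE libraries. Slc17a7 makes up at least 79.0% in each AP1AR-DT OE library and at most 58.7% in a control, and control 2 is mostly Slc17a6.

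The ratio of Slc17a6 to Slc17a7 in TPM therefore separated the groups although neither gene did so alone. It was 0.595, 15.6 and 0.691 in controls 1 to 3, and 0.0545, 0.024 and 0.224 in A to C. Controls 1 and 3 had nearly equal ratios although control 3 was several times higher in both genes, and control 2 was far above both. On the log2 scale the ratio was 0.89 ± 2.66 (SD, n = 3) in the control group and -3.91 ± 1.63 (SD, n = 3) in the AP1AR-DT OE group, a difference of -4.81. Leaving out 1 library at a time moved this difference between -5.68 (without AP1AR-DT OE C) and -3.27 (without control 2). With control 1 as the only control it was -3.16. As the ratio joins both genes that the family was chosen for, it has no test either. The groups did not overlap for 22.4% of the single genes tested. How often they separate for ratios of genes or for shares of a family was not computed.

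The summed level of the family did not follow the groups. The sum was 28.8, 44.0 and 251 TPM in controls 1 to 3 and 154, 298 and 72.5 TPM in A to C. Controls 1 and 2 were the lowest, and control 3 was second only to B. For comparison, Slc32a1 (VGAT), which loads GABA into vesicles and marks inhibitory neurons, had 439, 404 and 215 TPM in the controls and 477, 510 and 570 TPM in A to C. The summed glutamate transporters reached 0.0656, 0.109 and 1.17 times the TPM of Slc32a1 in controls 1 to 3, and 0.323, 0.584 and 0.127 times in A to C. Slc17a7 alone lay below Slc32a1 in all 6 libraries. In bulk tissue, fewer cells of a type and less RNA per cell cannot be told apart.

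The other genes of the pathway were counted at the study's thresholds, an unadjusted P under 0.05 and an absolute log2 fold change above 0.32. The P-values here are from edgeR's quasi-likelihood test, whereas the study used DESeq2. At these thresholds 12.2% of all genes tested were called, 5.1% higher and 7.15% lower in the AP1AR-DT OE group, while an adjusted P under 0.05 called 0.0275%. Of the 137 tested genes in the lists below, 29 had an unadjusted P under 0.05 and 0 an adjusted P under 0.05 in edgeR, where the adjusted P ranged from 0.295 to 0.998. DESeq2 placed 2 of them under 0.05 after adjustment, Avp and Cldn5, and limma-voom 0.

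Among the 6 other genes of the SLC17 family, Slc17a1, Slc17a2, Slc17a3 and Slc17a4, which include phosphate transporters of kidney and liver, had 0 counts in every library. Slc17a9, the vesicular nucleotide transporter, was at 0.12 to 0.438 CPM and was not tested. Slc17a5 (sialin), the lysosomal sialic acid exporter, fell from 15.5 ± 1.78 to 11.7 ± 0.802 CPM (SD, n = 3 each), with a log2 fold change of -0.41 (SE 0.14) and no overlap, and lost its call in 5 of 15 alternative settings, one of them without control 3. Of 6 transporters that load other transmitters or zinc, 1 rose and 0 fell, with a median log2 fold change of 0.37 against -0.014 over all genes tested. The one that rose was Slc18a3 (VAChT), which loads acetylcholine, from 16.2 ± 9.71 to 33.7 ± 8.65 CPM (SD, n = 3 each), and it lost its call in 6 of 15 settings, one of them without control 3. Slc30a3 (ZnT3), which loads zinc into glutamatergic vesicles of the cortex and hippocampus, was at 3.34, 1.33 and 20.8 CPM in controls 1 to 3 and 22.9, 43.9 and 2.02 CPM in A to C. Like Slc17a7 it was highest in B and lowest in control 2, and its groups overlapped. Its log2 fold change was 1.43 (SE 1.21) and not called, but 3.32 and called without control 3.

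Of 17 listed genes, subunits of the vesicular proton pump and the chloride transporter Clcn3, 0 were called in either direction in edgeR, DESeq2 or limma-voom, with a median log2 fold change of 0.124. Without AP1AR-DT OE C 1 was called higher, Atp6v0b, another pump subunit gene. Atp6v0e2, a subunit gene of the pump, had the only unadjusted P under 0.05 in the fit of all 6 libraries, with a log2 fold change of 0.24 that was under the threshold. Of 18 genes of glutamate uptake and the glutamine cycle, 0 were called with any of these tools and 0 had an unadjusted P under 0.05 in edgeR, with a median of 0.052. Without control 3, Slc25a22, a mitochondrial glutamate carrier gene, was called higher, and without control 2 Slc1a6, a neuronal glutamate transporter gene. With control 1 as the only control 4 were called, Slc1a2 and Slc1a3 lower and Slc1a6 and Slc38a5 higher, of which Slc38a5 had 0 counts in control 1. Slc1a2 (GLT-1), the main astrocytic glutamate transporter, was at 2590 ± 407 CPM in the control group and 2370 ± 89.0 CPM in the AP1AR-DT OE group (SD, n = 3 each). Glul, the astrocytic glutamine synthetase, was far higher in 1 library of each group, at 1530 CPM in control 1 and 1540 CPM in A against 300 to 384 CPM in the other 4.

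Marker genes of brain regions and cell types were set beside the transporters because VGLUT1 and VGLUT2 mark different regions. The lists hold no vesicular glutamate transporter, and were written with earlier results of these data known. Of 10 thalamic markers, 3 fell (Gbx2, Rgs16 and Ntng1) and 0 rose, with a median log2 fold change of -1.276. Gbx2, a transcription factor gene of thalamic neurons, had 28.1 CPM in control 3 and 1.04 to 3.81 CPM elsewhere. The thalamic markers summed to 701 to 1340 CPM in the control group and 465 to 798 CPM in the AP1AR-DT OE group, with none at 0 in all libraries. Much of these sums was Zic1, at 458, 412 and 478 CPM in controls 1 to 3 and 270, 332 and 473 CPM in A to C. Zic4 and Prkcd also differed less between libraries than Gbx2, at 60.8 and 149 CPM in control 3 and 55.2 and 110 CPM in C. Zic1, Zic4 and Prkcd were not called. Of 11 hypothalamic markers tested, 6 fell (Avp, Hdc, Otp, Pmch, Oxt and Hcrt) and 0 rose, with a median of -2.143. All 14 listed hypothalamic markers, tested or not, summed to 18.9, 700 and 97.8 CPM in controls 1 to 3 and 19.3 to 42.1 CPM in A to C. Oxt, Otp, Sim1, Nr5a1 and Ghrh had 0 counts in control 1. Of 8 choroid plexus markers tested, 6 fell, Ttr among them. All 10 listed choroid plexus markers, tested or not, summed to 4060 CPM in control 3 against 52.7 to 75.2 CPM in the other 5 libraries. Without control 3, 0 thalamic, 4 hypothalamic and 0 choroid plexus markers were called, all lower, and the medians were -0.235, -2.503 and -0.172. The median of the choroid plexus markers with all libraries was -3.539. With all 6 libraries DESeq2 called 2 thalamic, 4 hypothalamic and 2 choroid plexus markers, and limma-voom called 0, 1 and 0. Without control 1 the counts called in edgeR were 6, 8 and 8, and without control 2 they were 4, 3 and 8. They were 0, 3 and 0 without A, 0, 4 and 0 without B, and 1, 3 and 2 without C. Control 3, highest in thalamic and choroid plexus markers, and control 2, highest in the summed hypothalamic markers, were the libraries highest in Slc17a6. The part of other regions in the Slc17a6 values was not tested.

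The 12 cortical glutamatergic neuron markers had a median log2 fold change of 0.412, with 1 called higher and 1 lower. Without control 3 the median was 0.707, and 2 were called, Cux2 and Emx1, both higher. The count called was 4 without control 1, 0 without control 2, 0 without A, 1 without B and 5 without C. Cux2, a gene of upper cortical layers, rose from 35.7 ± 2.46 to 45.9 ± 7.67 CPM (SD, n = 3 each), and Rorb, a gene of cortical layer neurons and of thalamic nuclei, fell from 31.3 ± 9.68 to 21.1 ± 0.873 CPM (SD, n = 3 each). Cux2 lost its call in 5 and Rorb in 8 of 15 settings, Rorb also without control 3. The markers summed to 302 to 510 CPM in the control group and 301 to 453 CPM in the AP1AR-DT OE group. By library their mean deviation from each gene's average was -0.426, -1.053 and 0.668 log2 units in controls 1 to 3 and 0.665, 0.945 and -0.799 log2 units in A to C. The libraries above average in this mean of the cortical markers, control 3, A and B, were those with the most Slc17a7. The part of cortical cell share in the Slc17a7 values was not tested. Not every cortical marker had this pattern: control 3 was the lowest library for Lamp5 (15.8 CPM), Rasgrf2 (90.4 CPM) and Tle4 (46.6 CPM). Neurod2, a transcription factor gene of excitatory neurons, was highest in control 3, A and B, at 5.38, 0.281 and 61.2 CPM in the controls and 34.4, 56.8 and 0.896 CPM in A to C. Tbr1, a gene of deep-layer neurons, was at 9.76, 16.1 and 29.4 CPM in the controls and 31.4, 49.2 and 12.9 CPM in A to C. Neither Neurod2 nor Tbr1 was called, and AP1AR-DT OE C was low in both while its Slc17a7 exceeded that of controls 1 and 2. Of 5 hippocampal markers tested, Fibcd1 rose and Prox1 fell, with a median of -1.25, which was -0.228 without control 3. Without control 3 the log2 fold change of Prox1 moved from -1.89 to -0.55 and kept its call. The count called was 3 without control 1, 1 without A, 0 without B and 0 without C. Prox1, a transcription factor gene of dentate granule cells, had 93.3 CPM in control 3 and 11.3 to 20.4 CPM in the other libraries.

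**Figure D3:**
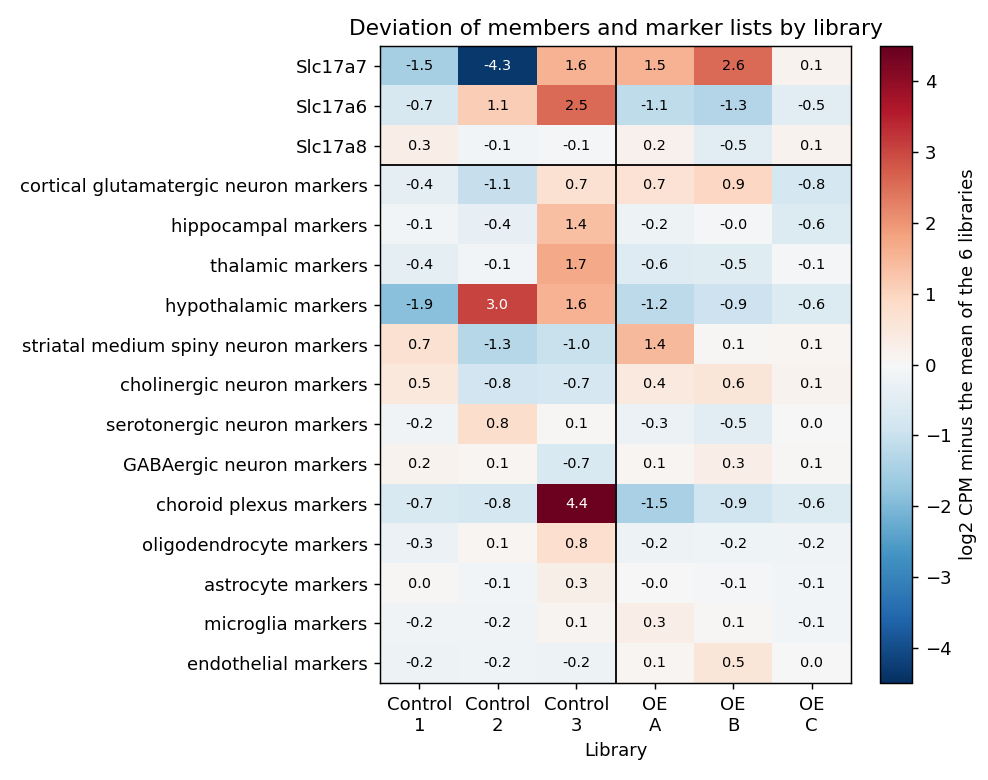
Log2 CPM minus the mean of the 6 libraries for each transporter, and the mean of that deviation over the genes of 13 marker lists (rows), by library (columns, controls left of the line), with red above and blue below the mean. Control 3 stands out in choroid plexus, thalamic and hippocampal markers and in Slc17a6. Hypothalamic markers are highest in control 2, at 3.05 log2 units, followed by control 3 at 1.55 log2 units. Control 2 has the lowest Slc17a7.

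Markers of neurons in which VGLUT3 is found, and of other cell types, were counted beside the 12.2% of all genes tested that were called. Of 3 serotonergic markers tested 0 were called with edgeR, DESeq2 or limma-voom and 0 had an unadjusted P under 0.05, though 1 was called without control 1 and 1 without C, and Tph2, the enzyme of serotonin synthesis, was at 0.295 to 0.783 CPM in all libraries. Of 2 markers of cholecystokinin (CCK) interneurons, 0 were called with these tools and 0 had an unadjusted P under 0.05, though Cck itself was called higher without control 3, its highest library at 129 CPM. Of 6 cholinergic markers 1 was called, Slc18a3, described above. This count rested on single libraries, with 6 of 6 called without control 1 and 0 without control 2, control 3, A or B. Of 10 GABAergic markers 0 were called and 0 had an unadjusted P under 0.05 in edgeR, with a median of 0.203, while DESeq2 called 2, Slc32a1 and Lhx6, limma-voom 1, and edgeR 5 without control 1. Of 10 striatal neuron markers 0 were called with these tools and 0 had an unadjusted P under 0.05, with a median of 0.900, but all 10 were called without control 1 and 1 without B or C. The striatal markers summed to 393 to 1520 CPM in the control group and 944 to 2580 CPM in the AP1AR-DT OE group, highest in A and lowest in control 2. Of 6 oligodendrocyte markers 2 fell, Mobp among them, 5 were called without control 1 and 0 without A or B, and the median moved from -0.35 to -0.024 without control 3. Of 6 astrocyte markers Aqp4 alone fell, with a log2 fold change of -0.60 (SE 0.25) that was -0.22 and not called without control 3, and it lost its call in 8 of 15 settings. Of 6 microglia markers 2 rose, C1qa and Tmem119, and 0 were called without control 1, control 2, A or B. Among those not called, P2ry12 had a log2 fold change of -0.25 and Cx3cr1 of -0.0011. Of 5 endothelial markers 2 rose, Cldn5 and Ly6c1, with 1 to 3 called when 1 library was left out. Over all lists 28 of 137 genes tested were called, 7 higher and 21 lower, and without control 3 these were 9 and 7. The total was 60 without control 1, 6 without AP1AR-DT OE A and 8 without AP1AR-DT OE B, and Cldn5 was the only 1 of the 28 that kept its call in all 15 settings.

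**Figure D4:**
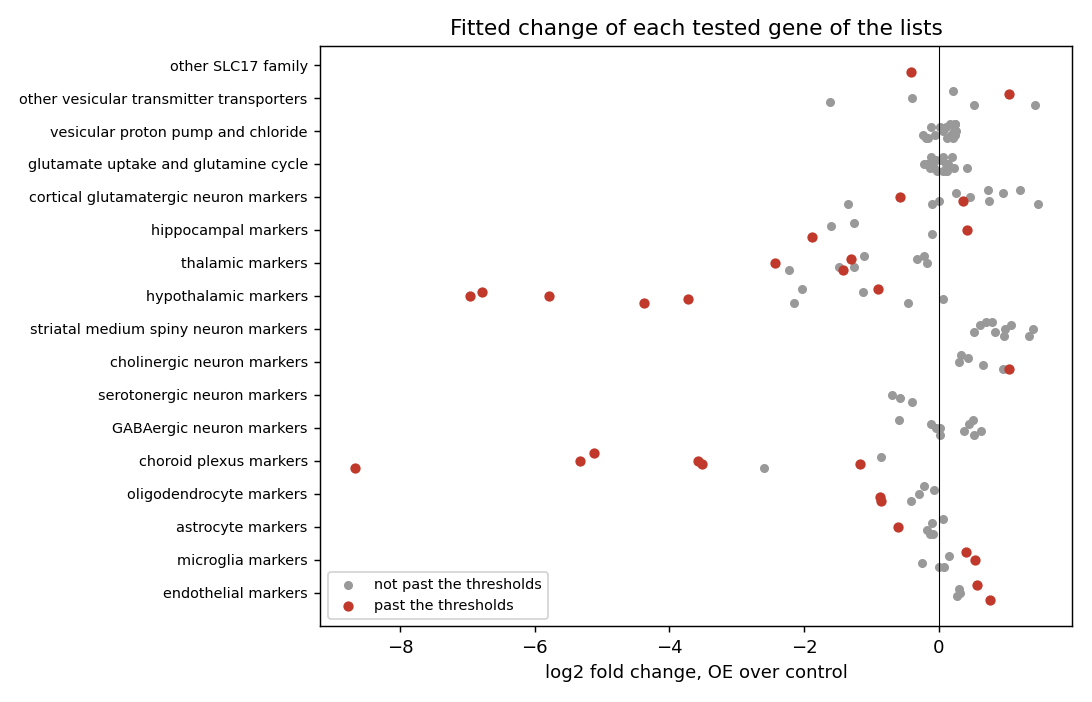
Fitted log2 fold change of AP1AR-DT OE over control for each tested gene of 17 lists, with genes past P under 0.05 and an absolute log2 fold change above 0.32 in red. The genes of the proton pump and of glutamate uptake lie near 0, and the choroid plexus and hypothalamic genes reach -8.68 and -6.96.

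The genes whose log2 CPM was most like that of a transporter over the 6 libraries were named by Pearson's r among 14018 genes, as a description that includes the differences between groups and libraries. For Slc17a7 they included Arl4d (r = 0.9892), Mgat5b, Gm29778, Ctsa and Rtn4rl2, the last a Nogo receptor family gene, with r of at least 0.9852. Rtn4rl2 had a range like that of Slc17a7, with 4.57, 0.924 and 14.1 CPM in controls 1 to 3 and 17.9, 35.2 and 6.12 CPM in A to C. Ctsa spanned only 47.2 to 67.8 CPM, so a high r did not mean a like size of difference. For Slc17a6 they were Zfpm2 (r = 0.9973), Tspan2, Rorb, Gm6776, Agps and Ermn, with r of at least 0.9924. Tspan2 and Ermn are genes of oligodendrocytes, and Ermn had 48.2, 72.6 and 116 CPM in controls 1 to 3 and 36.6, 35.5 and 45.1 CPM in A to C. For Slc17a8 they were 1110059G10Rik (r = 0.9794), Chtop, Slc26a6, Fam227a, Diaph2 and Selenon, with r of at least 0.9587. With 6 libraries a high r is common: 76 genes exceeded 0.95 for Slc17a7, 156 for Slc17a6 and 13 for Slc17a8, and 84, 161 and 12 genes had a negative r of that size.

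The base composition of the transporters differed, and fold changes in these libraries followed base composition, with a median log2 fold change that rose from -0.303 in the tenth of genes with the least GC to 0.223 in that with the most. The longest transcript held 56.56% GC for Slc17a7, 42.88% for Slc17a6 and 43.99% for Slc17a8. The tenth of the genes tested to which Slc17a7 belongs had a median log2 fold change of 0.162, that of Slc17a6 -0.214 and that of Slc17a8 -0.134. After correction for GC content in each library the fitted log2 fold change was 1.37 for Slc17a7, -2.26 for Slc17a6 and 0.079 for Slc17a8.

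**Figure D5:**
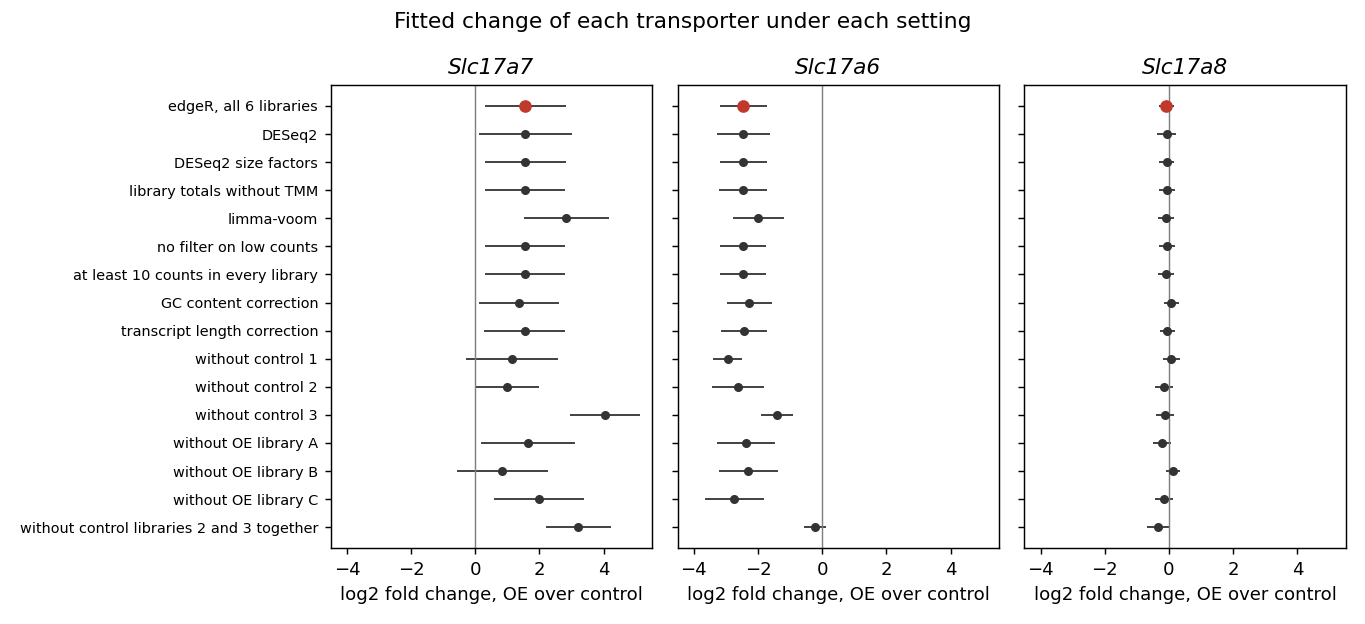
Fitted log2 fold change of each transporter with its SE (bars) under the fit of all 6 libraries in edgeR (red) and 15 other settings. Slc17a7 stays above 0 and Slc17a6 below 0 in each, with Slc17a6 at -0.22 when control 1 is the only control, and Slc17a8 lies near 0 in each.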

How the data were processed

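RNA from brain tissue of 3 control and 3 AP1AR-DT OE mice was sequenced as paired-end reads of 150 bases. By the study's methods, the authors ran FastQC and aligned reads to GRCm38 with Bowtie2, an aligner that cannot bridge introns. They made whole-number gene counts from StringTie's coverage of GENCODE genes and compared the groups with DESeq2. The submitters' processing notes instead name TopHat2 2.0.4, SAMtools, HTSeq, Cuffdiff and edgeR 2.6.12 with mm9. The counts used here are the raw counts as the authors deposited them. Use of strand is not given in the sources used here. Genes with an identifier but no symbol numbered 129 and stayed in the table. The deposited table also holds the authors' mean normalized counts, fold changes with errors, test statistics and P-values, which were not used.

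Groups were compared with edgeR 4.0.16 in R 4.3.3 (filterByExpr, TMM, quasi-likelihood F-test, two-sided, Benjamini-Hochberg adjustment) over all 6 libraries without covariates. The common biological coefficient of variation was 0.313. The SE of a fold change in edgeR was derived from the F statistic, as the absolute log2 fold change divided by the square root of F. The mice are separate animals by the labels, and P-values measure the spread between these 6 samples only. The pair of libraries most alike differed by a mean chi-square of 44.8 per gene, so none was a repeat of another. Log2 CPM for comparing patterns used a prior count of 2 and genes with a mean log2 CPM above 2. Alternatives were DESeq2 1.42.0, its size factors, library totals without TMM, limma-voom (limma 3.58.1), no filter, at least 10 counts in every library, GC and length correction by splines with 5 degrees of freedom, and leaving out each library. Leaving out controls 2 and 3 together was chosen after seeing the data. Scripts were tested on simulated data.

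The genes named are the transporters, the 151 genes of 18 lists (called genes first, then defining markers), and the 6 genes most like each transporter, a few of which are not reported here. The transporters and lists were chosen with earlier results of these data known. Coordinates, lengths and sequences are from GENCODE vM21 on GRCm38. Python 3.11.15, pandas 2.3.3, Biopython 1.88 and matplotlib 3.10.9 were used for tables and figures.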

Additional observations from a re-analysis of the deposited data

How the results depend on the processing

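Slc17a7 kept a positive and Slc17a6 a negative fitted log2 fold change in all 15 alternatives. The log2 fold change of Slc17a7 ranged from 0.85 (without AP1AR-DT OE B) to 4.04 (without control 3) when 1 library was left out, and that of Slc17a6 was -0.22 without controls 2 and 3. The number of genes past the thresholds was 2675, 1569 with GC content correction, and 1430 (without AP1AR-DT OE B) to 3508 (without AP1AR-DT OE C) when 1 library was left out, with 1620 without AP1AR-DT OE A. Pathway and marker list counts were 28 called genes, 14 with limma-voom, 11 without controls 2 and 3, and 6 (without AP1AR-DT OE A) to 60 (without control 1) when 1 library was left out, with 8 without AP1AR-DT OE B and 16 without control 3. Without controls 2 and 3 the log2 fold change turned positive for Rgs16 (0.36), Hcrt (0.62), Avp (1.61), Oxt (8.50), Otp (7.14) and Kcne2 (2.15). Leaving out 1 library moved it from -6.35 (without AP1AR-DT OE B) to 0.32 (without control 3) for Kcne2. With control 1 as the only control, its spread is assumed to be that of the AP1AR-DT OE group, and values for genes at 0 counts in control 1, such as Oxt and Otp, depend on the prior count. Cldn5 kept its call in 15 of 15 alternatives. The causes of these shifts were not tested. No paired analysis was possible because the groups share fewer than 2 replicate numbers and the AP1AR-DT OE columns carry no mouse number. The fewest counts of a transporter in a library were 182, and each group had 3 mice. What limits these values was not tested.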
